A study of Drosophila melanogaster with 30 samples.

Results

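The cuticle protein genes of Drosophila melanogaster were followed in whole male flies that lack *Pink1*, a mitochondrial protein kinase. The members were chosen by gene symbol alone: every symbol that begins with Cpr and a digit, Lcp and a digit, Ccp84A, Twdl, *Pcp*, *Edg78E* or *Edg84A*, and the symbols *Acp1* and *Acp65Aa*. These symbols took 125 of the 14326 genes in the table, of which 70 belong to the Cpr family, 26 to Twdl, 17 to Lcp, 7 to Ccp84A, 2 to Edg, 2 to Acp and 1 to *Pcp*. RNA came from pools of 5 male flies aged 1 day, with 1 library for each pool. Group 4 held 10 libraries of w *pink1*B9 mutants that flew, and group 3 held 10 libraries of w *pink1*B9 mutants that did not fly and came from the same parent pairs as group 4. Group 2 held 8 libraries of w *pink1*B9 mutants from parent pairs without any flying offspring, and group 1 held 2 libraries of w *pink1*RV controls. The *pink1*B9 allele is a deletion that removes the function of the gene in the whole fly, *pink1*RV is the matched control line with an intact gene, and flies of all 4 groups carry the eye colour mutation w. Which pool of group 4 shares its parents with which pool of group 3 is not in the labels, and no pairing was used, so differences between parent pairs remain in the spread within these groups.

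The insect cuticle is a layered coat of chitin fibres and proteins that epidermal cells secrete at each moult and, in the adult, around eclosion. Most Cpr, Lcp, Ccp84A, *Pcp* and Edg genes, and *Acp65Aa*, encode proteins with the Rebers and Riddiford chitin-binding domain, while the Tweedle proteins (Twdl) form a separate insect family that also associates with chitin. Each stage uses its own selection of genes: the Lcp genes were first found in the larval cuticle, *Pcp* and the Edg genes in that of the pupa, and *Acp1* and *Acp65Aa* in that of the adult. Many members lie side by side in the genome as tandem copies.

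Total counts ranged from 6434252 to 38330421 per library with a median of 19636778. *Pink1* itself was at 46.4 to 101 CPM (median 60.3) in group 4, 51.0 to 74.0 CPM (median 57.3) in group 3 and 42.5 to 60.5 CPM (median 55.5) in group 2, against 270.5 and 221 CPM in the controls, so all 28 mutant libraries lay below both controls (log2 fold change −1.95 in group 4, standard error 0.15, adjusted p = 4.20e-10 from edgeR). CPM are counts scaled to a common library size, here after normalization by the trimmed mean of M-values (TMM). Library GC055057 of group 4 held 6674 CPM of ovary and yolk transcripts, against 9.06 to 27.3 CPM in the other 29 libraries, although the flies are labelled male. For GC055064 to GC055069, 6 libraries of groups 3 and 4, human skin is given as the tissue, while their counts are those of fly genes. The 2 controls differed from each other in many members, as described below, so that each comparison with group 1 rests on 2 unlike libraries.

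A few members held most of the signal, and the larval genes were close to undetected. Of the 125 members, 78 had a mean under 1 CPM over the 30 libraries, 27 had 1 to 10 CPM, 16 had 10 to 100 CPM and 4 had 100 CPM or more, and 3 members had no count in any library. The 4 members with the most reads, *Acp1*, *Cpr49Ae*, *Cpr92F* and *Cpr100A*, took 68.0% of the CPM summed over all members, and the first 10 took 83.2%. All 17 Lcp genes were under 1 CPM on average, as were both Edg genes, *Pcp*, 19 of 26 Twdl genes and 36 of 70 Cpr genes. A total of 75 members had enough counts to be tested: 48 Cpr, 13 Twdl, 5 Lcp, 5 Ccp84A and 2 Acp genes, *Pcp* and *Edg78E*. The 50 members that were not tested averaged at most 0.261 CPM (*Cpr47Ec*), and their highest value in 1 library was the 3.73 CPM of *Lcp3* in control GC055041.

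Per kilobase of transcript, *Acp1* (adult cuticle protein; chromosome 2L, 7740562 to 7741537 in the BDGP6.54 annotation) had the highest mean level, 921 CPM per kb. It was followed by *Cpr49Ae* with 273 CPM per kb, *Cpr92F* with 136, *Cpr100A* with 125 and the adult gene *Acp65Aa* with 105 CPM per kb. *Acp1* was at 13.6 to 2354 CPM (median 1097) in group 4, 200.4 to 1399 CPM (median 428) in group 3 and 3.404 to 1719 CPM (median 812) in group 2, against 526.1 and 19.5 CPM in libraries GC055041 and GC055040 of group 1. *Cpr49Ae* was at 36.7 to 755 CPM (median 359.6) in group 4, 156 to 684 CPM (median 300.0) in group 3 and 39.2 to 519.8 CPM (median 188) in group 2, against 738 and 36.0 CPM in libraries GC055041 and GC055040 of group 1. In *Acp1* both controls lay within the range of group 4. In *Cpr49Ae* control GC055041 lay above every library of groups 3 and 2, and control GC055040 lay just below the lowest mutant library. *Cpr92F* was at 3.54 to 553 CPM (median 364) in group 4, 109.8 to 432 CPM (median 231) in group 3 and 1.64 to 445 CPM (median 192) in group 2, against 121 and 13.6 CPM in libraries GC055041 and GC055040 of group 1. *Cpr100A* was at 6.71 to 667 CPM (median 166) in group 4, 47.2 to 271 CPM (median 98.9) in group 3 and 3.24 to 550.4 CPM (median 186) in group 2, against 88.3 and 4.85 CPM in libraries GC055041 and GC055040 of group 1. *Acp65Aa* was at 0.493 to 202 CPM (median 71.7) in group 4, 16.3 to 220.2 CPM (median 50.8) in group 3 and 0.210 to 109.7 CPM (median 35.0) in group 2, against 113 and 0.215 CPM in libraries GC055041 and GC055040 of group 1. *Acp65Aa*, which lies among the larval genes at chromosome 3L, 6152050 to 6152745, thus spanned the range from almost no signal to over 100 CPM both among the mutants and between the controls.

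Of the 20 members with a mean of 10 CPM or more, 10 varied strongly from library to library and 10 did not. The variable members were *Acp1*, *Acp65Aa*, *Cpr49Ab*, *Cpr49Ae*, *Cpr62Bc*, *Cpr76Bd*, *Cpr92F*, *Cpr97Ea*, *Cpr97Eb* and *Cpr100A*, with a standard deviation of 1.01 to 2.02 in log2(CPM + 1) over the 28 mutant libraries. The steady members were *Cpr47Ef*, *Cpr49Ag*, *Cpr51A*, *Cpr56F*, *Cpr62Bb*, *Cpr65Au*, *Cpr67B*, *Cpr72Ec*, *Cpr73D* and *Twdlalpha*, with a standard deviation of 0.287 to 0.531. The split was made after the values had been seen. Control GC055041 was 8.03 to 526.4 times as high as control GC055040 in the 10 variable members, and 0.356 to 3.61 times as high in the 10 steady members. Over the 75 members tested, the median standard deviation was 0.354, against 0.296 over all 13190 genes tested.

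**Figure D1:**
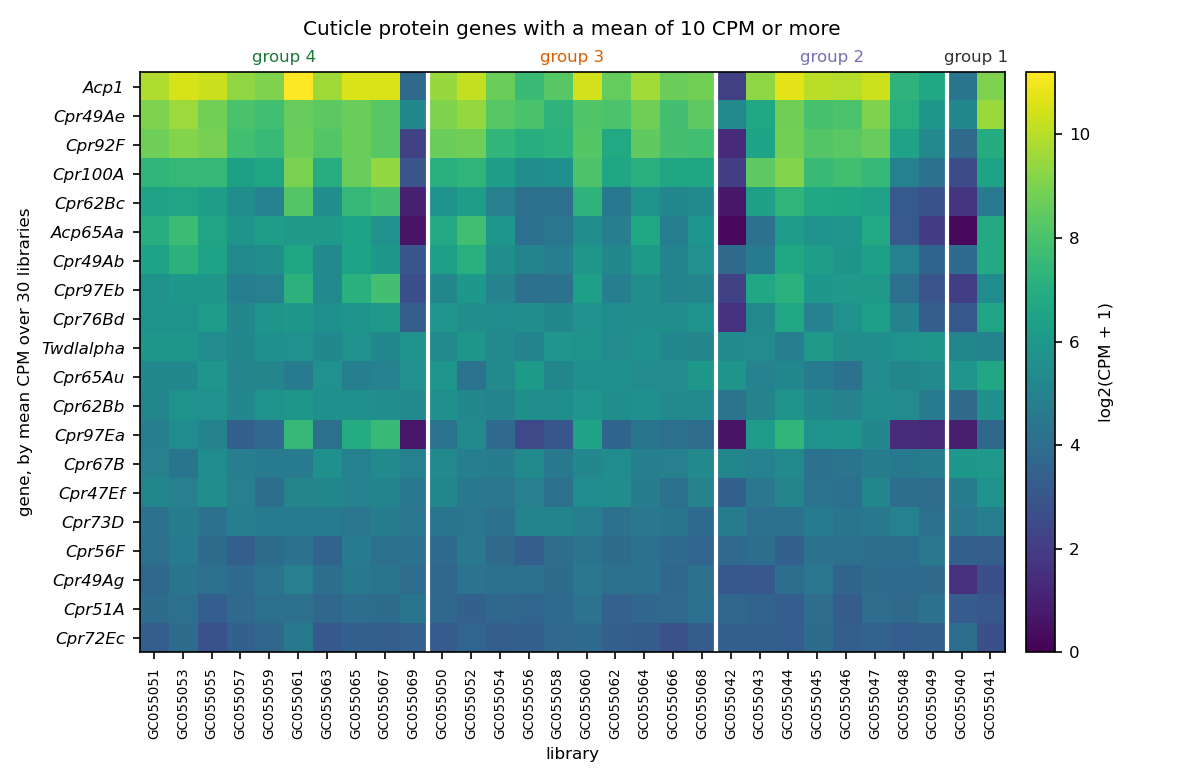
Levels of the 20 cuticle protein genes with a mean of 10 CPM or more (rows) in each of the 30 libraries (columns, by group), as log2(CPM + 1). The columns of GC055069 in group 4, GC055042 and GC055049 in group 2 and GC055040 in group 1 are dark in the variable rows, such as *Acp1* and *Acp65Aa*, and like their neighbours in steady rows such as *Twdlalpha* and *Cpr51A*.

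The summed level of the 10 variable members was 84.9 CPM in GC055069 of group 4, against 1292 to 4477 CPM in the other 9 libraries of that group. In group 2 it was 67.8 CPM in GC055042, 253.9 in GC055049 and 496 in GC055048, against 1498 to 3898 CPM in the other 5. In group 3 it ran from 756 to 2988 CPM. The controls had 1870.1 CPM in GC055041 and 102 CPM in GC055040. The 3 lowest mutant libraries were thus GC055042, GC055069 and GC055049, and 1 control was as low as they were. In the 10 steady members the same sum was 233 to 299.6 CPM in group 4, 226 to 333 CPM in group 3 and 193 to 268 CPM in group 2, against 355 and 248 CPM in the controls. Transcripts of other lists, flight muscle among them, were low in GC055069, GC055042, GC055049 and control GC055040 too. The summed level of 10 indirect flight muscle genes, none of which was at 0 in any library, was 9211 CPM in GC055069, 8313 in GC055042, 7941 in GC055049 and 8468 in control GC055040, against 13355 to 34060 CPM in the other 26 libraries. In the same order, the chitin-binding obstructor genes summed to 88.2, 104, 85.05 and 89.8 CPM, against 107 to 709.5 CPM in the other 26. For zona pellucida genes of the apical matrix the sums were 162, 123, 152 and 190 CPM, against 213 to 494 CPM. Testis genes summed to 7226, 4879, 7502 and 3494 CPM, inside the range of 2960 to 7655 CPM of the other 26. Control GC055040 lay near the lower end of that range, as did control GC055041 with 3094 CPM. GC055048 had 15965 CPM of flight muscle transcripts. The low libraries were singled out by the measured levels, so no test was made between them and the rest. The part of these differences in the result was not tested. In whole-fly RNA, fewer cells of a type and less RNA per cell cannot be told apart.

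By family, the summed CPM of the mutant groups overlapped, and at least 1 control lay inside the range of the mutants. The 70 Cpr genes together had 345.6 to 2434 CPM (median 1738) in group 4, 746 to 1904 (median 1069) in group 3 and 284 to 2429 (median 1202) in group 2, against 1641 and 356 CPM in the controls. The 2 Acp genes had 14.1 to 2420.2 CPM (median 1206) in group 4, 217 to 1443 (median 487) in group 3 and 3.61 to 1791 (median 849) in group 2, against 639.5 and 19.7 CPM. The 26 Twdl genes were steadier, with 58.4 to 93.4 CPM (median 77.9) in group 4, 54.2 to 103 (median 68.3) in group 3 and 47.2 to 93.7 (median 74.4) in group 2, against 53.5 and 66.1 CPM in the controls. Both Twdl control values lay inside the mutant range. The 7 Ccp84A genes had 7.61 to 28.6 CPM (median 12.3) in group 4, 4.51 to 22.4 (median 9.37) in group 3 and 1.51 to 15.2 (median 8.11) in group 2, against 24.8 and 4.81 CPM. The 17 Lcp genes together had only 1.49 to 5.21 CPM (median 2.96) in group 4, 1.77 to 5.21 (median 2.63) in group 3 and 0.900 to 2.98 (median 2.22) in group 2, against 6.73 and 2.59 CPM in the controls, so that GC055041 lay above every mutant library. Of the 6.73 CPM of Lcp genes in GC055041, *Lcp3* alone, which was not tested, held 3.73 CPM. No test was made on these sums.

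**Figure D2:**
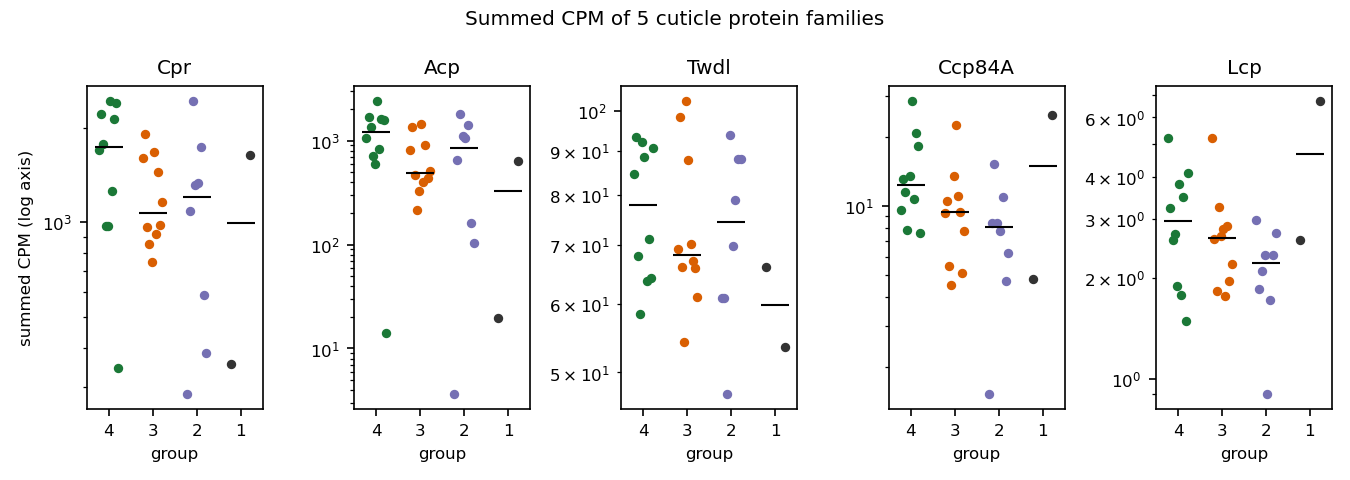
Summed CPM (log axis) of the Cpr, Acp, Twdl, Ccp84A and Lcp genes in each library (points), with groups 4, 3, 2 and 1 from left to right and a line at each group median. The Acp sums span 3.61 to 2420.2 CPM among the mutants, while the Twdl sums stay between 47.2 and 103 CPM.

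The comparisons with group 1 ask which members differ between *Pink1* mutants and controls. In group 4, 19 of the 75 members tested passed the threshold (11 higher and 8 lower), which is 25.3%, against 33.2% of all 13190 genes tested (17.5% higher and 15.7% lower). In group 3, 15 members passed (8 higher and 7 lower), or 20%, against 26.5% of all genes (14.2% higher and 12.3% lower). In group 2, 16 members passed (7 higher and 9 lower), or 21.3%, against 20.2% of all genes (10.7% higher and 9.52% lower). The share of cuticle protein genes past the threshold was therefore no larger than, or near, that of all genes. The median log2 fold change over the members tested was 0.57, 0.33 and 0.25 in groups 4, 3 and 2, beside 0.08, −0.01 and −0.00 over all genes. The 3 comparisons share the 2 controls, and members entered the test only with enough counts in at least as many libraries as the smallest group has, so genes seen in 1 condition alone were kept. The threshold was an adjusted p of 0.05 from edgeR's quasi-likelihood test.

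The calls against group 1 depended on each control. Without GC055040 (replicate 1 of group 1), 13, 7 and 12 members passed in groups 4, 3 and 2, and without GC055041 (replicate 2) 12, 8 and 10 passed. Of the calls in group 4, those of *Cpr49Ag*, *Cpr66Cb*, *Cpr76Bb*, *Lcp65Ae*, *TwdlD* and *TwdlE* were kept whichever control was left out. Those of *Lcp65Ae* and *TwdlD* were kept in all 3 comparisons. However, *TwdlD* entered the test only through group 1, and *Lcp65Ae* and *Cpr76Bb* only through the mutants. Each was tested only through the groups where it was high, so its kept calls add no support.

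Members that were higher in all 3 mutant groups were *Cpr47Eg*, *Cpr49Ag*, *Cpr50Ca*, *Cpr51A*, *Cpr76Bb*, *Lcp65Ae* and *TwdlV*. All 28 mutant libraries lay above both controls for 5 members (*Cpr49Ag*, *Cpr51A*, *Cpr76Bb*, *Lcp65Ae* and *TwdlV*), a pattern that 7.75% of all genes tested had. In *Cpr76Bb* this rests on GC055057 with 1 count (0.0751 CPM), against 2 counts in control GC055040 (0.0718 CPM), a margin that depends on the scaling. *Cpr49Ag* was at 12.8 to 28.1 CPM (median 17.4) in group 4, 12.7 to 21.4 CPM (median 16.8) in group 3 and 7.31 to 20.4 CPM (median 14.0) in group 2, against 5.68 and 2.01 CPM in libraries GC055041 and GC055040 of group 1. *Cpr49Ag* (chromosome 2R, 12407793 to 12408523) encodes a chitin-binding cuticle protein of the Cpr49A group of neighbours, and its log2 fold changes were 2.24 (group 4), 2.09 (group 3) and 1.76 (group 2) relative to group 1, with standard errors of 0.37, 0.36 and 0.36 and edgeR adjusted p = 7.71e-05, 0.00019 and 0.000981. Without GC055040 the value in group 2 was 1.22 and did not pass. *TwdlV* was at 1.32 to 5.98 CPM (median 3.72) in group 4, 1.72 to 5.82 CPM (median 3.09) in group 3 and 1.59 to 4.49 CPM (median 2.78) in group 2, against 1.09 and 0.431 CPM in libraries GC055041 and GC055040 of group 1. The Tweedle gene *TwdlV* (chromosome 3R, 4254708 to 4255833) was higher in every mutant library, with log2 fold changes of 2.26 (group 4), 2.11 (group 3) and 1.80 (group 2) relative to group 1, with standard errors of 0.55, 0.55 and 0.54 and edgeR adjusted p = 0.00316, 0.0063 and 0.0195. Without GC055040 they were 1.77, 1.62 and 1.31, and none passed. *Cpr51A* was at 9.09 to 19.3 CPM (median 14.98) in group 4, 9.96 to 18.1 CPM (median 12.7) in group 3 and 8.88 to 17.5 CPM (median 12.9) in group 2, against 7.31 and 8.51 CPM in libraries GC055041 and GC055040 of group 1. Its rise was smaller but its libraries were close together, with log2 fold changes of 0.90 (group 4), 0.72 (group 3) and 0.69 (group 2) relative to group 1, with standard errors of 0.25, 0.24 and 0.25 and edgeR adjusted p = 0.00766, 0.0297 and 0.0474. Without GC055041 its log2 fold changes were 0.78, 0.61 and 0.58, none of which passed, and without GC055040 1.04, 0.86 and 0.83, which passed in group 4 alone.

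*Cpr50Ca* was at 1.39 to 3.11 CPM (median 2.04) in group 4, 0.743 to 2.29 CPM (median 1.72) in group 3 and 1.55 to 2.83 CPM (median 1.91) in group 2, against 0.905 and 0.682 CPM in libraries GC055041 and GC055040 of group 1. For *Cpr50Ca*, 27 of the 28 mutant libraries lay above both controls, and the log2 fold changes were 1.42 (group 4), 1.05 (group 3) and 1.33 (group 2) relative to group 1, with standard errors of 0.34, 0.33 and 0.34 and edgeR adjusted p = 0.0025, 0.02 and 0.00668. They were 1.258, 0.89 and 1.16 without GC055040, where none passed, and 1.62, 1.259 and 1.54 without GC055041, where that in group 4 passed.

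The other 3 of these members were near the detection limit in the controls. They entered the test only through the mutant libraries, where they were high, so their p is not given and their calls add no support. The larval gene *Lcp65Ae* (chromosome 3L, 6137583 to 6138118) had 0.235 to 1.85 CPM (median 0.579) in group 4, 0.367 to 1.10 CPM (median 0.605) in group 3 and 0.252 to 0.881 CPM (median 0.398) in group 2, against 0.0362 and 0 CPM in the controls. The controls held 1 count between them. The ratio of group 4 to group 1 was thus 45.0, with an exact 95% interval of 7.96 to 1790.0 that covers counting error only. *Lcp65Ae* was higher than both controls in 28 of 28 mutant libraries. *Cpr76Bb* was at 0.0751 to 1.13 CPM (median 0.885) in group 4, 0.270 to 0.949 CPM (median 0.466) in group 3 and 0.344 to 0.937 CPM (median 0.768) in group 2, against 0 and 0.0718 CPM in libraries GC055041 and GC055040 of group 1. With 2 counts in the controls, the ratio for *Cpr76Bb* was 23.1 in group 4 (interval 6.29 to 192), 13.9 in group 3 (3.76 to 117) and 17.2 in group 2 (4.63 to 144). Its calls in groups 3 and 2 were lost without GC055041. *Cpr47Eg* had no count in either control and 0 to 0.560 CPM (median 0.236) in group 4, 0.105 to 0.534 CPM (median 0.155) in group 3 and 0 to 0.625 CPM (median 0.104) in group 2, which is at least 4.13-, 4.15- and 3.21-fold higher against a floor of 3 counts over group 1. Its call was lost in all 3 groups when either control was left out.

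A further 4 members passed in group 4: *Cpr56F*, *Cpr65Ec*, *Cpr72Ea* and *TwdlL*, the last of which passed in group 3 too. All 4 lost the call in group 4 without GC055041 (log2 fold changes 0.72 for *Cpr56F*, 1.18 for *Cpr65Ec* and 0.96 for *TwdlL*), as did *Cpr56F* (0.85), *Cpr65Ec* (1.72) and *Cpr72Ea* without GC055040, and *TwdlL* lost that in group 3 when either control was left out. *TwdlL* was at 1.73 to 3.67 CPM (median 2.09) in group 4, 1.36 to 4.19 CPM (median 2.14) in group 3 and 1.20 to 4.06 CPM (median 1.63) in group 2, against 0.688 and 1.22 CPM in libraries GC055041 and GC055040 of group 1. *TwdlL*, a Tweedle gene of the same cluster as *TwdlD*, was above both controls in 27 of 28 mutant libraries, with log2 fold changes of 1.32 (group 4), 1.265 (group 3) and 0.93 (group 2) relative to group 1, with standard errors of 0.42, 0.42 and 0.42 and edgeR adjusted p = 0.0175, 0.0267 and 0.108; the value of group 2 did not pass. *Cpr56F* was at 9.54 to 24.6 CPM (median 16.8) in group 4, 9.43 to 21.6 CPM (median 14.3) in group 3 and 10.3 to 21.6 CPM (median 15.7) in group 2, against 9.41 and 9.98 CPM in libraries GC055041 and GC055040 of group 1. In *Cpr56F* the log2 fold change was 0.78 in group 4 (standard error 0.29, adjusted p = 0.0363 from edgeR), with 26 of 28 mutants above both controls. *Cpr65Ec* was at 1.83 to 9.24 CPM (median 5.41) in group 4, 2.04 to 7.23 CPM (median 4.19) in group 3 and 1.73 to 7.04 CPM (median 3.71) in group 2, against 1.74 and 2.44 CPM in libraries GC055041 and GC055040 of group 1. Its log2 fold change in group 4 was 1.42 (standard error 0.54, adjusted p = 0.0419 from edgeR), and the ranges of mutants and controls overlapped. *Cpr72Ea*, a neighbour of the lens gene *Cpr72Ec*, was at 0.111 to 1.262 CPM (median 0.464) in group 4, against 0 and 0.0718 CPM in the controls, and 4 of the 28 mutant libraries were at 0. From 2 counts in the controls, its ratio in group 4 was 17.5 (interval 4.73 to 146). *Cpr72Ea* entered the test only through the mutant libraries, where it was high, and its p is not given.

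**Figure D3:**
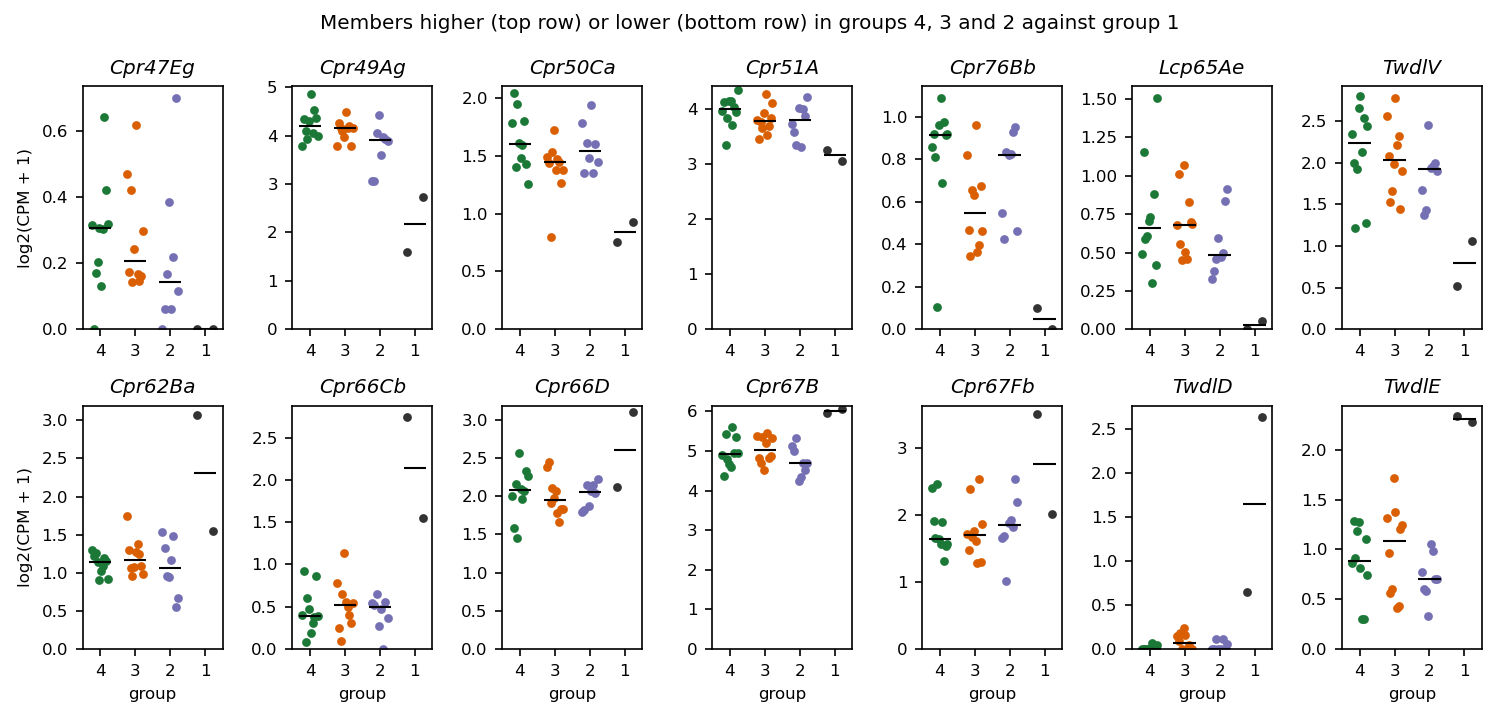
Levels, as log2(CPM + 1), of the 7 members that were higher and the 7 that were lower in groups 4, 3 and 2 than in group 1, with a point for each library and a line at each group median. Every mutant library lies above both controls in *Cpr49Ag*, *Cpr51A*, *Cpr76Bb*, *Lcp65Ae* and *TwdlV* and below both in *Cpr66Cb*, *Cpr67B*, *TwdlD* and *TwdlE*. For *Cpr76Bb* the lowest mutant library, GC055057, held 1 count.

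Members that were lower in all 3 mutant groups were *Cpr62Ba*, *Cpr66Cb*, *Cpr66D*, *Cpr67B*, *Cpr67Fb*, *TwdlD* and *TwdlE*. In 4 of them (*Cpr66Cb*, *Cpr67B*, *TwdlD* and *TwdlE*) all 28 mutant libraries lay below both controls, as they did in 6.93% of all genes tested. *TwdlD* (chromosome 3R, 26640025 to 26641054), in which dominant mutations alter the body shape of larva and pupa, was at 0 to 0.0469 CPM (median 0) in group 4, 0 to 0.183 CPM (median 0.0494) in group 3 and 0 to 0.0823 CPM (median 0) in group 2, against 5.21 and 0.575 CPM in controls GC055041 and GC055040. No mutant library held more than 2 counts of *TwdlD*, against 144 and 16 counts in GC055041 and GC055040. The 10 libraries of group 4 held 3 counts in all, a ratio of 0.00541 to group 1 (interval 0.00110 to 0.0161), and the log2 fold change was −5.56 in group 3 and −6.51 in group 2 (standard errors 0.67 and 0.77). *TwdlD* entered the test only through group 1, where it was high, and its p is not given. GC055041 alone held over 0.5 of the CPM of *TwdlD* summed over the 30 libraries.

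Among the Cpr genes, *Cpr66Cb* fell most. *Cpr66Cb* was at 0.0631 to 0.888 CPM (median 0.317) in group 4, 0.0675 to 1.19 CPM (median 0.433) in group 3 and 0 to 0.576 CPM (median 0.408) in group 2, against 1.92 and 5.67 CPM in libraries GC055041 and GC055040 of group 1. The log2 fold changes of *Cpr66Cb* (chromosome 3L, 8336672 to 8338595) were −3.30 (group 4), −3.06 (group 3) and −3.39 (group 2) relative to group 1, with standard errors of 0.56, 0.56 and 0.59 and edgeR adjusted p = 0.000125, 0.000331 and 0.000231. In groups 3 and 2 they were −2.04 and −2.39 without GC055040 and did not pass. *TwdlE* was at 0.229 to 1.44 CPM (median 0.848) in group 4, 0.330 to 2.29 CPM (median 1.13) in group 3 and 0.255 to 1.07 CPM (median 0.627) in group 2, against 3.84 and 4.06 CPM in libraries GC055041 and GC055040 of group 1. *TwdlE* shares 968 exon bases with lectin-28C on the opposite strand, and the strand setting of the counting was not stated, so its reads could include those of lectin-28C. Its log2 fold changes were −2.19 (group 4), −1.90 (group 3) and −2.57 (group 2) relative to group 1, with standard errors of 0.51, 0.52 and 0.53 and edgeR adjusted p = 0.00236, 0.00875 and 0.00115, and the call in group 3 was lost without GC055040 (−1.84) or without GC055041 (−1.95). *Cpr67B* was at 19.7 to 47.9 CPM (median 29.1) in group 4, 22.1 to 42.5 CPM (median 31.9) in group 3 and 17.9 to 38.9 CPM (median 25.0) in group 2, against 65.2 and 61.5 CPM in libraries GC055041 and GC055040 of group 1. In *Cpr67B* the controls were close to each other and above every mutant library. Its log2 fold changes were −1.02 (group 4), −0.95 (group 3) and −1.25 (group 2) relative to group 1, with standard errors of 0.26, 0.26 and 0.26 and edgeR adjusted p = 0.00429, 0.0093 and 0.00137. The calls of *Cpr67B* in groups 4 and 3 were lost without GC055041 (log2 fold changes −0.99 and −0.91), and that in group 3 also without GC055040 (−0.97).

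In the remaining falls the 2 controls stood apart. *Cpr62Ba* was at 0.868 to 1.46 CPM (median 1.21) in group 4, 0.943 to 2.36 CPM (median 1.25) in group 3 and 0.469 to 1.89 CPM (median 1.09) in group 2, against 1.92 and 7.36 CPM in libraries GC055041 and GC055040 of group 1. *Cpr62Ba* lies beside the variable member *Cpr62Bc* and the steady member *Cpr62Bb*, and its log2 fold changes were −1.97 (group 4), −1.78 (group 3) and −1.96 (group 2) relative to group 1, with standard errors of 0.35, 0.35 and 0.37 and edgeR adjusted p = 0.000183, 0.000714 and 0.000419. Without GC055040 they were −0.67, −0.48 and −0.67, and none passed. *Cpr67Fb* was at 1.501 to 4.51 CPM (median 2.14) in group 4, 1.44 to 4.83 CPM (median 2.25) in group 3 and 1.03 to 4.84 CPM (median 2.62) in group 2, against 3.04 and 10.4 CPM in libraries GC055041 and GC055040 of group 1. Here GC055041 lay inside the range of the mutants, and the log2 fold changes were −1.38 (group 4), −1.40 (group 3) and −1.32 (group 2) relative to group 1, with standard errors of 0.42, 0.42 and 0.43 and edgeR adjusted p = 0.0133, 0.0151 and 0.0316. Without GC055040 they were −0.22, −0.24 and −0.15, and none passed. *Cpr67Fb* also shares 389 exon bases with an antisense RNA. *Cpr65Au* was at 23.1 to 56.7 CPM (median 34.9) in group 4, 17.96 to 67.6 CPM (median 44.5) in group 3 and 17.7 to 54.7 CPM (median 35.5) in group 2, against 102 and 56.5 CPM in libraries GC055041 and GC055040 of group 1. *Cpr65Au*, a gene of the 65A cluster with 491 exon bases in common with an antisense RNA, passed in groups 4 and 2 (log2 fold changes −1.08 and −1.19, standard errors 0.32 and 0.33, adjusted p = 0.0121 and 0.012 from edgeR) but not in group 3 (log2 fold change −0.79, adjusted p = 0.0684). Both calls were lost without GC055041 (log2 fold changes −0.60 and −0.70), and the difference between groups 4 and 3 did not pass (adjusted p = 0.712 from edgeR). *Cpr78Ca* passed in group 2 alone, at 0 to 0.312 CPM (median 0.0429), against 0.688 and 0.251 CPM in the controls (log2 fold change −2.65, standard error 0.86). Without GC055041 its log2 fold change was −1.75. *Cpr78Ca* entered the test only through libraries of groups 4 and 3 and control GC055041, where it was higher than in group 2. Its p against group 1 is therefore not given, and its call adds no support. In a fit of groups 2 and 1 alone, *Cpr78Ca* had too few counts to be tested.

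Proteins of the corneal lens of the compound eye are encoded by *Cpr66D* and *Cpr72Ec*, together with *Crys* and *retinin*. *Cpr66D* was at 1.73 to 4.89 CPM (median 3.21) in group 4, 2.15 to 4.44 CPM (median 2.85) in group 3 and 2.48 to 3.69 CPM (median 3.15) in group 2, against 7.57 and 3.34 CPM in libraries GC055041 and GC055040 of group 1. The log2 fold changes of *Cpr66D* were −0.75 (group 4), −0.83 (group 3) and −0.83 (group 2) relative to group 1, with standard errors of 0.28, 0.28 and 0.29 and edgeR adjusted p = 0.0404, 0.0295 and 0.0414. Without GC055041 they were −0.06, −0.14 and −0.13, and none passed. The mutants overlapped with control GC055040 in this gene but not with GC055041. *Cpr72Ec* was at 6.12 to 21.8 CPM (median 10.2) in group 4, 5.83 to 14.1 CPM (median 9.63) in group 3 and 9.06 to 14.5 CPM (median 9.93) in group 2, against 5.57 and 15.7 CPM in libraries GC055041 and GC055040 of group 1. *Cpr72Ec* did not pass in any group (log2 fold changes 0.08, −0.08 and −0.03), and its controls lay on either side of the mutant medians. *Crys* and *retinin* did not pass in group 4 either (log2 fold changes 0.45 and −0.04). Photoreceptor transcripts, which come from the same organ, were lower. Beside 33.2%, 26.5% and 20.2% of all genes tested, 13 of 13 genes on the photoreceptor list passed in group 4, 12 in group 3 and 11 in group 2. Their summed level was 1874 to 4967 CPM in group 4, 2615 to 6037 CPM in group 3 and 2345 to 6938 CPM in group 2, against 7147 and 15741 CPM in GC055041 and GC055040, and no gene of the list was at 0 in any library. Their part in the result for *Cpr66D* was not tested.

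**Figure D4:**
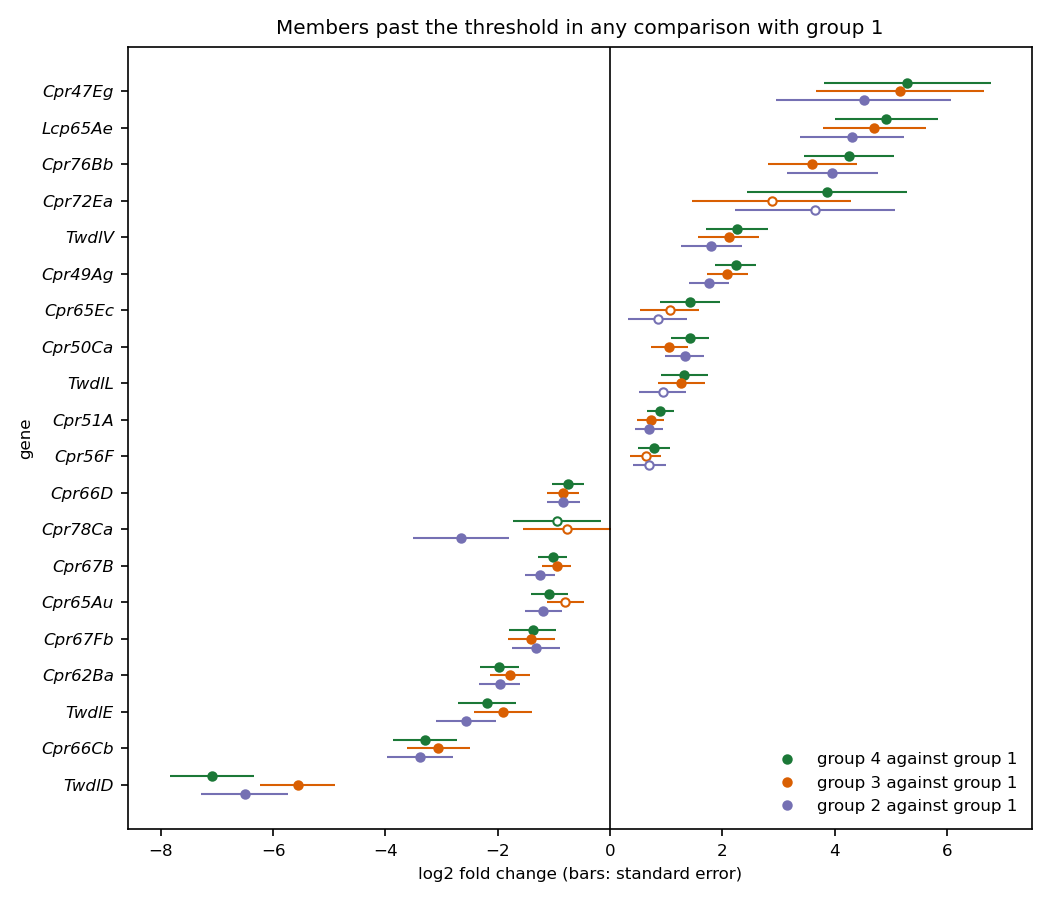
Log2 fold changes against group 1 of the 20 members past the threshold in at least 1 comparison, with groups 4, 3 and 2 from top to bottom in each row; bars are standard errors and open circles did not pass. *TwdlD* lies at −7.10, −5.56 and −6.51 at the foot of the plot. The controls held 0 to 2 counts in the top 4 rows, *Cpr47Eg*, *Lcp65Ae*, *Cpr76Bb* and *Cpr72Ea*, so the fitted values there depend on the prior count of the model. The values of *TwdlD* depend on it too, since no mutant library held more than 2 counts of that gene.

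The smaller families gave few calls. Neither Acp gene passed against group 1: the log2 fold change of *Acp1* was 2.01, 1.18 and 1.45 in groups 4, 3 and 2, with standard errors of 1.35, 1.27 and 1.31. *Pcp*, the pupal gene that lies within an intron of Gart, was at 0.244 to 2.48 CPM (median 0.4503) in group 4, 0.0758 to 0.698 CPM (median 0.518) in group 3 and 0.294 to 0.902 CPM (median 0.527) in group 2, against 0.398 and 0.287 CPM in the controls, and did not pass (adjusted p = 0.285 in group 4 from edgeR). *Edg78E*, an ecdysone-dependent gene of the prepupa, was at 0.0751 to 1.66 CPM (median 0.580) in group 4, 0.157 to 1.21 CPM (median 0.454) in group 3 and 0.294 to 0.867 CPM (median 0.424) in group 2, against 0.326 and 0.287 CPM, and did not pass either (adjusted p = 0.265). *Edg84A*, a target of the nuclear receptor *ftz-f1* at the same stage, had 11 counts in all over the 30 libraries and was not tested.

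None of the 5 Ccp84A genes tested passed in any comparison in edgeR's test. An unadjusted p under 0.05 was found for 1 in group 4 against group 1 and 2 in group 4 against group 2. Over all 13190 genes tested, 5774 and 1593 had such a p in these comparisons. *Ccp84Ab* was at 1.42 to 15.1 CPM (median 4.11) in group 4, 0.576 to 10.8 CPM (median 2.70) in group 3 and 0 to 9.14 CPM (median 3.32) in group 2, against 20.2 and 0 CPM in libraries GC055041 and GC055040 of group 1. *Ccp84Aa* was at 1.28 to 5.56 CPM (median 2.70) in group 4, 0.357 to 3.92 CPM (median 1.58) in group 3 and 0 to 2.55 CPM (median 0.750) in group 2, against 2.24 and 0.575 CPM in libraries GC055041 and GC055040 of group 1. For *Ccp84Ab*, GC055041 lay above every mutant library and GC055040 was at 0, while for *Ccp84Aa* both controls lay inside the range of the mutants. *Ccp84Ag* was at 1.30 to 4.26 CPM (median 2.17) in group 4, 0.423 to 3.85 CPM (median 1.59) in group 3 and 1.07 to 3.75 CPM (median 1.82) in group 2, against 0.869 and 1.15 CPM in libraries GC055041 and GC055040 of group 1. For *Ccp84Ag*, 25 of 28 mutant libraries lay above both controls (log2 fold change 1.14 in group 4, standard error 0.56, adjusted p = 0.112 from edgeR). *Ccp84Ad* was at 0.747 to 4.76 CPM (median 2.16) in group 4, 0.476 to 4.81 CPM (median 1.56) in group 3 and 0 to 2.21 CPM (median 1.23) in group 2, against 1.34 and 2.69 CPM in libraries GC055041 and GC055040 of group 1. Its controls, too, lay inside the range of the mutants. Of the 5 Lcp genes tested, *Lcp65Ae* alone passed. *Lcp1*, a gene of the third instar larva, was at 0.0616 to 1.22 CPM (median 0.403) in group 4, 0 to 2.30 CPM (median 0.443) in group 3 and 0 to 0.798 CPM (median 0.233) in group 2, against 0.362 and 0.898 CPM in the controls. *Lcp65Ag2* was at 0 to 0.942 CPM (median 0.419) in group 4, against 1.63 and 0.575 CPM in the controls (adjusted p = 0.11), and *Lcp65Af* at 0.0631 to 0.659 CPM (median 0.232), against 0.145 and 0.0359 CPM (adjusted p = 0.153). The Lcp65A, Ccp84A, Cpr65Ax and Cpr67Fa genes are tandem copies of similar sequence, so the division of reads among them is uncertain.

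Among the Tweedle genes, 2 rose (*TwdlL* and *TwdlV*) and 2 fell (*TwdlD* and *TwdlE*) in groups 4 and 3, of 13 tested. That is 30.8% in each, near the 33.2% and 26.5% of all genes tested that passed in groups 4 and 3. *TwdlD* entered the test only through group 1, so its calls add no support. *Twdlalpha*, the only one above 10 CPM on average, was at 34.5 to 59.4 CPM (median 48.7) in group 4, 31.9 to 60.0 CPM (median 40.7) in group 3 and 27.2 to 65.0 CPM (median 45.9) in group 2, against 31.3 and 33.8 CPM in the controls (log2 fold change 0.52 in group 4, standard error 0.25, adjusted p = 0.112 from edgeR). *TwdlP* was at 1.35 to 17.8 CPM (median 10.6) in group 4, 1.20 to 22.8 CPM (median 9.82) in group 3 and 5.46 to 14.8 CPM (median 9.003) in group 2, against 0.760 and 10.2 CPM in libraries GC055041 and GC055040 of group 1. In *TwdlP*, the first control was below every mutant library and the second inside their range. *TwdlG* was at 3.66 to 11.2 CPM (median 5.37) in group 4, 4.53 to 9.09 CPM (median 6.09) in group 3 and 3.48 to 7.97 CPM (median 5.80) in group 2, against 4.31 and 8.98 CPM in libraries GC055041 and GC055040 of group 1. *TwdlT* was at 2.22 to 7.06 CPM (median 4.88) in group 4, 1.65 to 7.58 CPM (median 3.98) in group 3 and 2.39 to 5.38 CPM (median 3.73) in group 2, against 3.73 and 4.60 CPM in libraries GC055041 and GC055040 of group 1. Both controls of *TwdlG* and of *TwdlT* lay inside the range of group 4, and neither gene passed.

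The comparison of group 4 with group 3 sets flying against non-flying mutants of the same parent pairs. None of the 75 members passed, and neither did any other gene tested (0% of all genes). The smallest adjusted p among the members was 0.616 (edgeR). An unadjusted p under 0.05 was found for 5 members, beside 1055 of the 13190 genes tested. DESeq2 and limma-voom made no call among the members either. The log2 fold change was positive in 56 of the 75 members, with a median of 0.15, beside 0.03 over all genes. Of the 5 with the smallest p, *Cpr23B* was at 0.0813 to 1.43 CPM (median 0.731) in group 4, 0.0918 to 0.659 CPM (median 0.367) in group 3 and 0.204 to 0.741 CPM (median 0.419) in group 2, against 0.181 and 0.395 CPM in libraries GC055041 and GC055040 of group 1. Its log2 fold change between groups 4 and 3 was 0.97 (standard error 0.36, adjusted p = 0.616 from edgeR), and the groups overlapped. *Cpr60D* was at 1.22 to 2.59 CPM (median 2.02) in group 4, against 1.84 to 3.86 CPM (median 2.99) in group 3 (log2 fold change −0.48, standard error 0.20). *Cpr50Cb* was at 2.10 to 18.3 CPM (median 4.67) in group 4, against 1.82 to 8.31 CPM (median 3.43) in group 3 (log2 fold change 1.02, standard error 0.45). The values of both genes overlapped between the groups. For *Cpr50Ca* and *Cpr76Bb*, whose levels are given above, the log2 fold changes were 0.37 and 0.65 (standard errors 0.18 and 0.31). In *Acp1*, the member with the highest level per kilobase, the log2 fold change was 0.83 with a standard error of 0.67.

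Against group 2, whose parent pairs had no flying offspring, none of the 75 members passed in group 4 or in group 3 (0% of all genes tested in each). In edgeR, an unadjusted p under 0.05 was found for 7 members in group 4, beside 1593 of the 13190 genes tested. In group 3 it was found for 2 members, beside 243 of all genes. DESeq2 and limma-voom gave 0 calls among the members in both. *Cpr57A* was at 6.02 to 14.99 CPM (median 9.66) in group 4 and 3.74 to 20.4 CPM (median 7.76) in group 3, against 3.17 to 12.1 CPM (median 5.39) in group 2, with a log2 fold change of 0.71 in group 4 (standard error 0.27, adjusted p = 0.332 from edgeR). *Cpr57A* shares 1488 exon bases with Obp57d on the same strand in the annotation, so the division of reads between them is uncertain. *Cpr47Ef* was at 15.3 to 45.6 CPM (median 31.5) in group 4, against 10.04 to 34.0 CPM (median 17.2) in group 2 (log2 fold change 0.58, standard error 0.23). *Ccp84Aa* was at 1.28 to 5.56 CPM (median 2.70) in group 4, against 0 to 2.55 CPM (median 0.750) in group 2 (log2 fold change 1.35, standard error 0.56). All of these ranges overlapped. *Cpr49Ag* and *Cpr78Ca* differed from group 2 by 0.48 and 1.71 on the log2 scale in group 4 (standard errors 0.19 and 0.67). In group 3 against group 2, the log2 difference of *Cpr78Ca* was 1.88 (standard error 0.67, adjusted p = 1 from edgeR).

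Across the 28 mutant libraries, the variable members went up and down together. Levels of the members with a mean of 10 CPM or more were compared with those of *Acp1* and of *Acp65Aa*, with further relations for 4 genes outside the families and for the total count, 47 relations in all, on log2(CPM + 1) and with 100000 permutations. *Acp1* and *Cpr62Bc* had r = 0.96, rho = 0.96 and, without 2 libraries, r = 0.96 (permutation p = 1e-05 for r, the smallest that the permutations can give, adjusted p = 2.61e-05, and 3.92e-05 for rho). Here and below, except for the total count, the last r leaves out the 2 libraries farthest from the median of *Acp1* (or of *Acp65Aa*, where it is the gene compared). Within groups 4, 3 and 2 the r of *Acp1* and *Cpr62Bc* was 0.96, 0.95 and 0.97. For *Acp1* with *Cpr100A* the values were r = 0.94, rho = 0.93 and, without 2 libraries, r = 0.91, and with *Cpr97Ea* r = 0.87, rho = 0.93 and, without 2 libraries, r = 0.92. Of these members, *Acp65Aa* followed *Cpr49Ae* most closely, with r = 0.96, rho = 0.92 and, without 2 libraries, r = 0.93 (permutation p = 1e-05 for r, adjusted p = 2.61e-05). With *Cpr97Ea* it had r = 0.72, rho = 0.52 and, without 2 libraries, r = 0.56. The 2 Acp genes had r = 0.90, rho = 0.69 and, without 2 libraries, r = 0.79 with each other.

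Of the 10 steady members, 4 were related to *Acp1* too. *Cpr62Bb* had r = 0.63, rho = 0.52 and, without 2 libraries, r = 0.46 with *Acp1* (adjusted permutation p for r = 0.00246), and r was 0.44, 0.18 and 0.80 within groups 4, 3 and 2. *Cpr47Ef* had r = 0.60, rho = 0.55 and, without 2 libraries, r = 0.53 (adjusted permutation p for r = 0.00118), with 0.49, 0.30 and 0.81 within the groups. *Cpr49Ag* had r = 0.54, rho = 0.53 and, without 2 libraries, r = 0.40 (adjusted permutation p for r = 0.00852), with 0.46, 0.49 and 0.54 within the groups. *Cpr65Au* ran the other way, with r = −0.41, rho = −0.42 and, without 2 libraries, r = −0.36 (adjusted permutation p for r = 0.0441) and −0.48, −0.44 and −0.63 within the groups. The other 6, *Cpr51A*, *Cpr56F*, *Cpr67B*, *Cpr72Ec*, *Cpr73D* and *Twdlalpha*, had r between −0.16 and 0.16 with *Acp1* and did not pass (adjusted permutation p for r of 0.493 or more). Genes of cuticle assembly outside the families went with *Acp1* too. The chitin synthase gene *kkv* had r = 0.82, rho = 0.90 and, without 2 libraries, r = 0.86 with *Acp1*, the chitin-binding protein gene *Gasp* r = 0.86, rho = 0.92 and, without 2 libraries, r = 0.89 and *obst-A* r = 0.77, rho = 0.90 and, without 2 libraries, r = 0.83 (adjusted permutation p for r = 2.61e-05 in each). *Lsp2*, a larval serum protein gene of the fat body, had r = 0.57, rho = 0.59 and, without 2 libraries, r = 0.47 (adjusted permutation p for r = 0.000817). The total count of a library had r = −0.17 and rho = −0.07 with *Acp1* (adjusted permutation p for r = 0.493). Without the 2 libraries farthest from the median total count, r was −0.39. With *Acp65Aa* the total count had r = −0.26, rho = −0.28 and, without 2 libraries chosen in the same way, r = −0.53 (adjusted permutation p for r = 0.254). Within groups 4, 3 and 2 the r with *Acp65Aa* was −0.56, −0.09 and −0.08. The points of each relation share a library and its scaling, and the choice of relations was made after the levels had been seen.

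**Figure D5:**
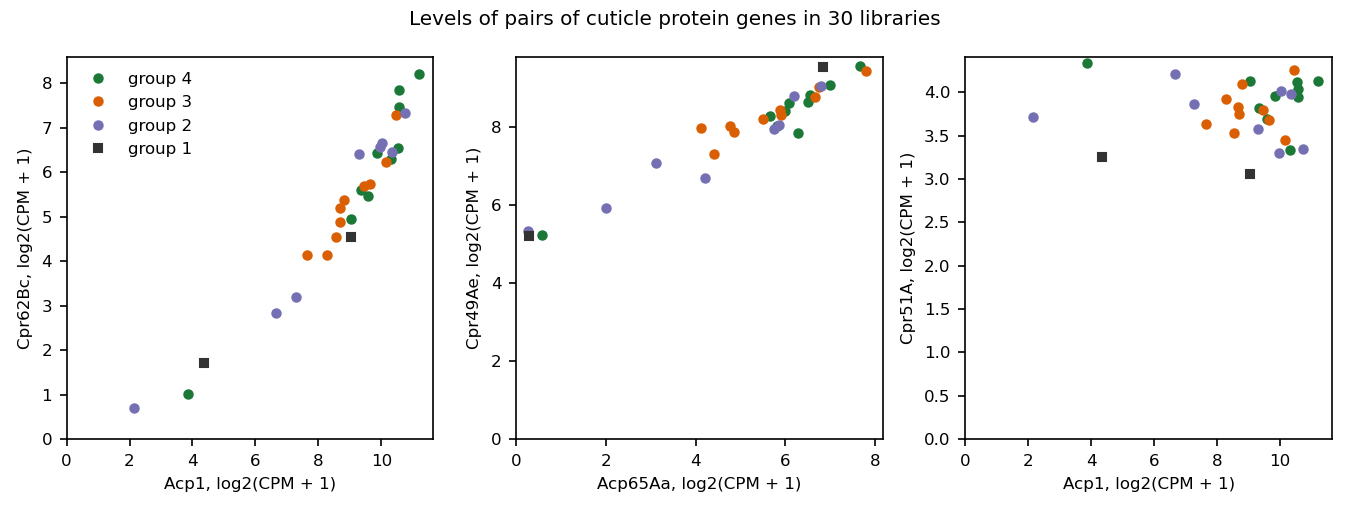
Levels, as log2(CPM + 1), of *Cpr62Bc* against *Acp1* (left), *Cpr49Ae* against *Acp65Aa* (middle) and *Cpr51A* against *Acp1* (right) in the 30 libraries, coloured by group. The first pairs rise together over the mutants (r = 0.96 and 0.96), while *Cpr51A* stays level (r = −0.16).

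The members lay in 17 clusters of neighbours at most 20000 bases apart, which held 95 of the 125 genes, and 30 stood alone. The largest was the 65A cluster (chromosome 3L, 6130386 to 6161589) with 19 genes, of which 17 were under 1 CPM on average, while its neighbours *Cpr65Au* and *Acp65Aa* were above 10 CPM. The larger cluster of Tweedle genes (chromosome 3R, 26619118 to 26641054) had 12 members, 10 of them under 1 CPM, and contained both *TwdlL*, which was higher in groups 4 and 3, and *TwdlD*, which was lower in all 3 mutant groups. In the Cpr49A cluster (chromosome 2R, 12376626 to 12415170; 8 members), *Cpr49Ae* and *Cpr49Ab* were variable members and *Cpr49Ag* a steady one. Genes of 1 cluster thus differed in level. The opposite directions of *TwdlD* and *TwdlL* carry limits given above. *TwdlD* entered the test only through group 1, so its calls add no support, and the result for *TwdlL* depended on which control was kept.

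Other genes of the cuticle were taken from lists. Their counts stand beside 33.2%, 26.5% and 20.2% of all genes tested that passed in groups 4, 3 and 2. Of 25 genes of chitin synthesis and assembly, group 4 had 1 higher and 3 lower, group 3 had 1 higher and 2 lower, and group 2 had 1 higher and 3 lower. *Chs2*, a chitin synthase gene of the gut lining, was at 2.93 to 18.3 CPM (median 6.84) in group 4, 6.89 to 29.1 CPM (median 15.9) in group 3 and 4.49 to 26.5 CPM (median 10.1) in group 2, against 47.7 and 27.6 CPM in the controls (log2 fold change −2.23 in group 4, standard error 0.51, adjusted p = 0.00193 from edgeR). *Cda9*, *Cht8* and *Cht12* were the other genes of that list past the threshold in group 4 (log2 fold changes −1.58, −1.45 and 0.63). Of 8 chitin-binding obstructor genes tested, 2 were higher in each mutant group, *obst-I* and *obst-J* (log2 fold changes 2.63 and 1.21 in group 4). None of the 12 zona pellucida genes of the apical matrix passed in edgeR's test. An unadjusted p under 0.05 was found for 2, 2 and 1 of them in groups 4, 3 and 2, beside 5774, 5293 and 4663 of all 13190 genes. Of 14 genes of tanning and pigment, 1 was lower in each group: b, whose product makes the beta-alanine used in tanning (log2 fold change −1.09 in group 4, standard error 0.32).

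Of 24 genes of ecdysone and moulting signals, group 4 had 2 higher and 4 lower, group 3 had 0 higher and 3 lower, and group 2 had 1 higher and 1 lower. Over all genes tested, 33.2%, 26.5% and 20.2% passed in these groups. *Met* and *gce*, the juvenile hormone receptor genes, were lower in group 4 (log2 fold changes −0.85 and −0.65, standard errors 0.23 and 0.16, adjusted p = 0.00793 and 0.00333 from edgeR). *ImpE1* and *Eip75B*, both induced by ecdysone, were lower too (log2 fold changes −2.30 and −0.73). Among the marker lists of tissues, 1 of 4 corneal lens genes (*Cpr66D*), 13 of 18 midgut serine proteases and 1 of 9 male accessory gland genes were lower in group 4, 9 of 12 testis genes and 1 of 6 larval serum genes (*Lsp2*) were higher, and none of 13 ovary and 10 flight muscle genes passed. Over all genes tested, 17.5% were higher and 15.7% lower in group 4. Few calls did not mean small differences in the larval serum list, whose median log2 fold change in group 4 was 5.64. The summed level of that list was 43.3 to 3444 CPM in group 4, against 10.6 and 31.3 CPM in the controls. Between the mutant groups, edgeR called 0 genes of these lists, as it did over all genes.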

How the data were processed

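RNA of whole flies was prepared with the innuPREP kit per the labels (the study's methods name a Qiagen procedure) and TruSeq Stranded Total RNA libraries, and was sequenced on an Illumina HiSeq. The authors filtered the reads with fastp, pseudoaligned them with kallisto to the Drosophila BDGP6 assembly and, for their limma analysis, used tximport to make counts scaled by length, while the submitters' processing notes name kallisto 0.45.0 and a human genome build. The authors deposited whole-number estimated counts for each gene. It is not stated whether the deposited table holds those length-scaled counts, nor which strand setting was used. A length scaling would change levels by library and gene, and no correction was applied. All 30 value columns were mapped to samples.

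Counts were used as deposited. Genes were kept by filterByExpr, scaled by TMM and tested with the robust quasi-likelihood F-test of edgeR 4.0.16 (R 4.3.3) in 1 model over the 30 libraries with group as the only term, and the threshold was a p of 0.05 after Benjamini-Hochberg correction across 13190 genes. Group 1 had 2 libraries, so all groups shared 1 estimate of the spread. The labels do not name separate cultures beyond the pools, so p-values measure the spread between pools. Exact intervals cover counting error only. Levels of genes without a test are given on the CPM scale, SDs and relations on log2(CPM + 1). Symbols were matched to the BDGP6.54 annotation (14105 of 14326 genes, and all 125 members), from which positions, lengths and overlaps came.

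The members and the lists were chosen with earlier results of these data known. Named members were up to 12 in each direction with the smallest p past the threshold against group 1, up to 5 with the smallest p between mutant groups, up to 4 per family with the highest mean CPM, those with most of their CPM in 1 library and at least 30 counts there, the lens genes, and *Pcp*, the Edg and the Acp genes. Of the 180 symbols on 13 lists, 178 were in the table; up to 4 genes per list were named by p in group 4, except for genes named as relations or lens proteins, which were picked with their values in view. The main edgeR fit was also run on simulated data with known changes, read for group 4 against group 1 and group 4 against group 3. The alternative fits were not run on simulated data. The alternatives included DESeq2 1.42.0, voom from limma 3.58.1, other scalings and filters, fits of 2 groups alone, and fits without GC055057, without the 6 libraries labelled human skin or without either control. Python 3.11.15 with numpy 2.4.6, pandas 2.3.3, scipy 1.17.1 and matplotlib 3.10.9 made the tables and plots.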

Additional observations from a re-analysis of the deposited data

Results flagged for a closer look

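Looked at were 153 sets of values, each a named member or a family sum in a mutant group. In 23 of them the highest or lowest library stood far from the next one. The rule would flag about 1 in 20 independent sets by chance. These sets share libraries, and many members went up and down together, so the 23 are not read as an excess over chance. Of the 23 flagged values, all but the *Cpr76Bb* value of GC055057 were highest values. Of these, 5 were in GC055052 of group 3: *Acp65Aa* at 220.2 CPM (next 105.9), *Cpr57A* at 20.4 (next 10.4), *TwdlL* at 4.19 (next 2.84), *Edg78E* at 1.21 (next 0.712) and *Edg84A* at 0.0635 (the other 9 at 0). In GC055060 of group 3, *Cpr100A* was at 271 CPM (next 159), *Cpr62Bc* at 154 (next 74.6), *Cpr50Cb* at 8.31 (next 5.27) and the summed Ccp84A genes at 22.4 (next 13.5). In GC055050 of group 3, *Lcp1* was at 2.30 CPM (next 0.995), the summed Lcp genes at 5.21 (next 3.25) and *Cpr62Ba* at 2.36 (next 1.61). *TwdlG* was at 9.09 CPM in GC055058 of group 3 (next 6.92).

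In group 4, library GC055057, which held the ovary transcripts, had the lowest *Cpr76Bb* (0.0751 CPM, next 0.610) and the highest *Pcp* (2.48 CPM, next 1.000). GC055059 was highest in *TwdlG* (11.2 CPM, next 7.06) and in *Ccp84Ag* (4.26, next 2.72). *Ccp84Ad* was at 4.76 CPM in GC055061 (next 2.54), *Cpr78Ca* at 0.657 in GC055063 (next 0.333) and *Edg84A* at 0.222 in GC055053 (next 0.0939). In group 2, *Cpr72Ec* was at 14.5 CPM in GC055045 (next 10.7), *TwdlL* at 4.06 in GC055048 (next 1.99) and *Lcp1* at 0.798 in GC055042 (next 0.357), the library with the lowest *Acp1*. *Cpr78Ca*, *Edg84A*, *Edg78E* and *Lcp1* rest on few counts.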

How the results depend on the processing

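None of the 65 log2 fold changes of named members changed direction under any alternative that gave a value. The counts of members past the threshold moved most with the controls: leaving out either library of group 1 gave 12 to 13 calls in group 4, 7 to 8 in group 3 and 10 to 12 in group 2, against 19, 15 and 16 with both. With the lone control, the group 1 sample is assumed to vary like the other groups. Of the calls in groups 4 (19), 3 (15) and 2 (16), 26 in all were lost without GC055040 and 24 without GC055041. With the strict filter of at least 1 CPM in 8 libraries, 48 members were tested and 13, 10 and 10 were called, because *Cpr47Eg*, *Cpr66Cb*, *Cpr72Ea*, *Cpr76Bb*, *Cpr78Ca*, *Lcp65Ae* and *TwdlD* left the test.

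The other alternatives kept the counts within 1.5 times: DESeq2 called 25, 16 and 20 members in groups 4, 3 and 2, limma-voom 18, 15 and 15, RLE size factors 19, 15 and 16, scaling by total counts alone 18, 15 and 15, no filter 21, 18 and 17, fits of only the 2 groups 15, 14 and 12, fits without GC055057 20, 17 and 19, and fits without the libraries labelled human skin 15, 12 and 13. Single calls were lost for *Cpr66D* (scaling by total counts, the skin-labelled libraries, 2 groups alone), *Cpr51A*, *Cpr56F*, *Cpr65Ec*, *Cpr67Fb*, *Cpr72Ea* and, with limma-voom, *Cpr47Eg*; the cause was not tested. *Cpr47Eg* (2 groups alone, the skin-labelled libraries) and *Cpr78Ca* (2 groups alone) had too few counts to be tested there. Between mutant groups, 0 members were called under every alternative run. The median summed CPM of all members in group 4 was 3217 without GC055057, against 3036 with it. No paired analysis was possible because the labels carry no replicate or parent numbers for groups 3 and 4. Genes below about 1 CPM rest on few counts in each library, which limits their fold changes.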

Other observations

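A few members outside the naming rule were singled out after their values were seen. *Lcp3*, a gene of the third instar larva on chromosome 2R that was not tested, had 103 counts (3.73 CPM) in control GC055041 and 13 counts in control GC055040, and at most 11 counts in any mutant library. *Cpr49Ac* reached 29.9 CPM in GC055058 of group 3, against a median of 1.92 CPM over the 28 mutants and 0.543 and 0.179 CPM in the controls. *Cpr47Ea*, which shares 163 exon bases with Or47a on the other strand, ranged from 0.504 to 14.7 CPM among the mutants, with 12.9 and 0.323 CPM in GC055041 and GC055040.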
